A study of Homo sapiens with 6 samples.

Results

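Heat shock and DNAJ chaperone mRNAs were followed in A549 cells, an established human lung adenocarcinoma line, with and without the MIR21 gene. The members were the protein-coding genes of the HSPA, HSPH, HSP90, HSPD, HSPE and HSPB families, the DNAJA, DNAJB and DNAJC families and the heat shock factors HSF1 and HSF2, found by gene name; which families to follow was decided with earlier results of these data known. They numbered 78 of 58174 listed genes, of which 19799 were protein-coding. Parental A549 cells (Ctrl) were compared with A549 cells carrying a MIR21 deletion made by CRISPR/Cas9 (MIR21-KO), with 3 polyA RNA-seq libraries per group from cells harvested 48 h after seeding. Per the study's methods, 2 guide RNA plasmids and a Cas9 plasmid were transfected and single cells were sorted to give knockout clones, while Ctrl was the unedited parental population. How many clones stand behind the 3 MIR21-KO libraries is not given in the sources used here, so differences between clones and effects of the deletion cannot be told apart. The labels number the libraries but do not tie them to separate cultures, and p-values then measure only the spread between these libraries.

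Levels are given as FPKM, that is fragments scaled to gene length and library size, and the recovered reads summed to between 10631667 and 14345209 per library. MIR21 itself was listed at 0 in all 6 libraries, Ctrl included, so this table of polyA RNA does not check the deletion; VMP1, whose locus holds MIR21, had a mean of 75.1 FPKM in Ctrl and 143 FPKM in MIR21-KO. Summed levels of 5 epithelial markers were 1194 to 1288 FPKM in Ctrl and 776 to 1106 FPKM in MIR21-KO. Of these markers, KRT18 went from a mean of 673 to 422 FPKM (FDR = 0.0153, limma), KRT8 from 484 to 414 FPKM (FDR = 0.207) and KRT19 from 88.3 to 109 FPKM (FDR = 0.206). EPCAM was at 1.19 and 0.695 FPKM (FDR = 0.273), and CDH1, at 8.18 and 2.86 FPKM, was the one called lower (FDR = 0.000175). Of 5 alveolar type II markers, SFTPA1 and NKX2-1 were at 0 in all libraries and the sum was 4.72 to 5.53 FPKM in Ctrl and 6.62 to 7.34 FPKM in MIR21-KO, nearly all of it ABCA3. The 7 markers of other cell types, of which CD3E was at 0 throughout, summed to 2.03 to 2.37 FPKM in Ctrl and 1.70 to 2.61 FPKM in MIR21-KO, mostly LUM. Whether the epithelial marker shift has a part in the chaperone results was not tested. In such bulk samples, fewer cells of a kind and less RNA per cell cannot be told apart.

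Chaperones bind unfolded or partly folded proteins and keep them from aggregating. HSP70 proteins do so in an ATP-driven cycle that J-domain proteins (the DNAJ families) start and nucleotide exchange factors end, and HSP90 proteins act later, on kinases and steroid hormone receptors among others. HSP60 with its lid HSP10 forms a folding chamber in the mitochondrial matrix, small HSPs hold unfolded proteins without ATP, and the endoplasmic reticulum has an HSP70, an HSP90 and J proteins of its own. In the cytosol these genes are switched on by HSF1 through heat shock elements, inverted repeats of GAA, while the unfolded protein response acts on chaperones of the endoplasmic reticulum through ER stress elements. In tumours, high chaperone levels are known for stabilizing mutated and overexpressed oncoproteins.

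MIR21 gives rise to miR-21-5p and miR-21-3p, so its deletion bears on both. The 5p arm lies at chr17:59841273-59841294, on the plus strand of GRCh38.p14 (RefSeq). It is shown because its seed, bases 2 to 8 in capitals, sets which messages it can pair with.
miR-21-5p: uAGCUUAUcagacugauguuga

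Start-site windows of 300 bases (250 before and 50 after each RefSeq start) were at hand for 68 of the 78 members. They were searched on both strands for a heat shock element of 3 units, GAANNTTCNNGAA, and for the ER stress element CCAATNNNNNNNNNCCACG (N is any base). Neighbouring heat shock element matches could overlap, as the 2 in HSPD1 do, and are then printed as 1 run of capitals. The windows below come from abundant cytosolic, mitochondrial and endoplasmic reticulum chaperones that held a match. They are given on the strand of the gene, with the match in capitals. HSPB1 and HSPA9, abundant as well, held neither element in their windows and are not shown.
HSP90AA1, chr14:102087111-102087140, minus strand: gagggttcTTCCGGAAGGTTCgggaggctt
HSP90AB1, chr6:44247823-44247852, plus strand: tgagattgTTCTGGAAGCTTCtggattctg
HSPA8, chr11:123062170-123062199, minus strand: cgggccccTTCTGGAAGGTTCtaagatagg
HSPD1, chr2:197500061-197500090, minus strand: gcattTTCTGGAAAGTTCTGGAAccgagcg
HSPA5, chr9:125241385-125241414, minus strand: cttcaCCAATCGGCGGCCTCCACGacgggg
HSP90B1, chr12:103930211-103930240, plus strand: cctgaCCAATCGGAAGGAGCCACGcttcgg
In GENCODE 29 the HSPA5 window lies outside any gene, the HSP90AB1 window in an intron of that gene, and the other 4 within exons of transcripts of the same gene that begin further upstream; the HSPD1 window also touches an exon of HSPE1, and the HSP90B1 window one of TTC41P. Counted to the RefSeq start of its window, the match began 88 bases before the start of HSP90AA1, 112 before that of HSP90AB1, 55 before that of HSPA8, 245 before that of HSPD1, 66 before that of HSPA5 and 194 before that of HSP90B1.

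Among the 60 members averaging 0.5 FPKM or more, 14 were lower and 6 were higher in MIR21-KO cells at an FDR under 0.01 (limma on log2 FPKM, adjusted over all 16006 genes tested), and 40 were not called. Lower members made up 23.3% of those tested, against 8.38% of all genes tested, and higher members 10.0% against 7.66%; in either direction the background was 16.0%. Chaperones are abundant, and among genes of at least 5 FPKM the background was 13.2% lower and 8.89% higher, where the 46 members included 13 lower (28.3%) and 6 higher (13.0%). The median log2 fold change was -0.20 over the 60 members and -0.02 over all genes, and 39 members had a negative value. For 40 of the 60 members the libraries of the groups did not overlap (66.7%, background 48.1%), and at an FDR under 0.05 there were 31 members (51.7%, background 32.0%), 21 of them lower. All 20 called members had no overlap between groups, with 114 to 37529 reads per library.

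The count of 20 rested on all 6 libraries, since it was 8 without Ctrl replicate 1 and 7 without Ctrl replicate 2, without Ctrl replicate 3 or without MIR21-KO replicate 2. HSP90AA1, HSPD1, HSPA9, HSPA14, HSPA4, HSPH1 and HSPA2 kept their calls whichever library was left out. The other 13 lost theirs without 1 or more of Ctrl replicates 1 to 3 and MIR21-KO replicate 2 (DNAJC19 and HSPB8 also without MIR21-KO replicate 1), where their highest FDR lay between 0.0137 and 0.0431, and all 20 kept their direction. Over all genes tested there were 1342 lower and 1226 higher calls. Without any 1 of Ctrl replicates 1 to 3 and MIR21-KO replicate 2 there were 368 to 400 lower and 388 to 522 higher. There were 1229 lower and 964 higher without MIR21-KO replicate 1, and 1801 and 1599 without MIR21-KO replicate 3.

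**Figure D1:**
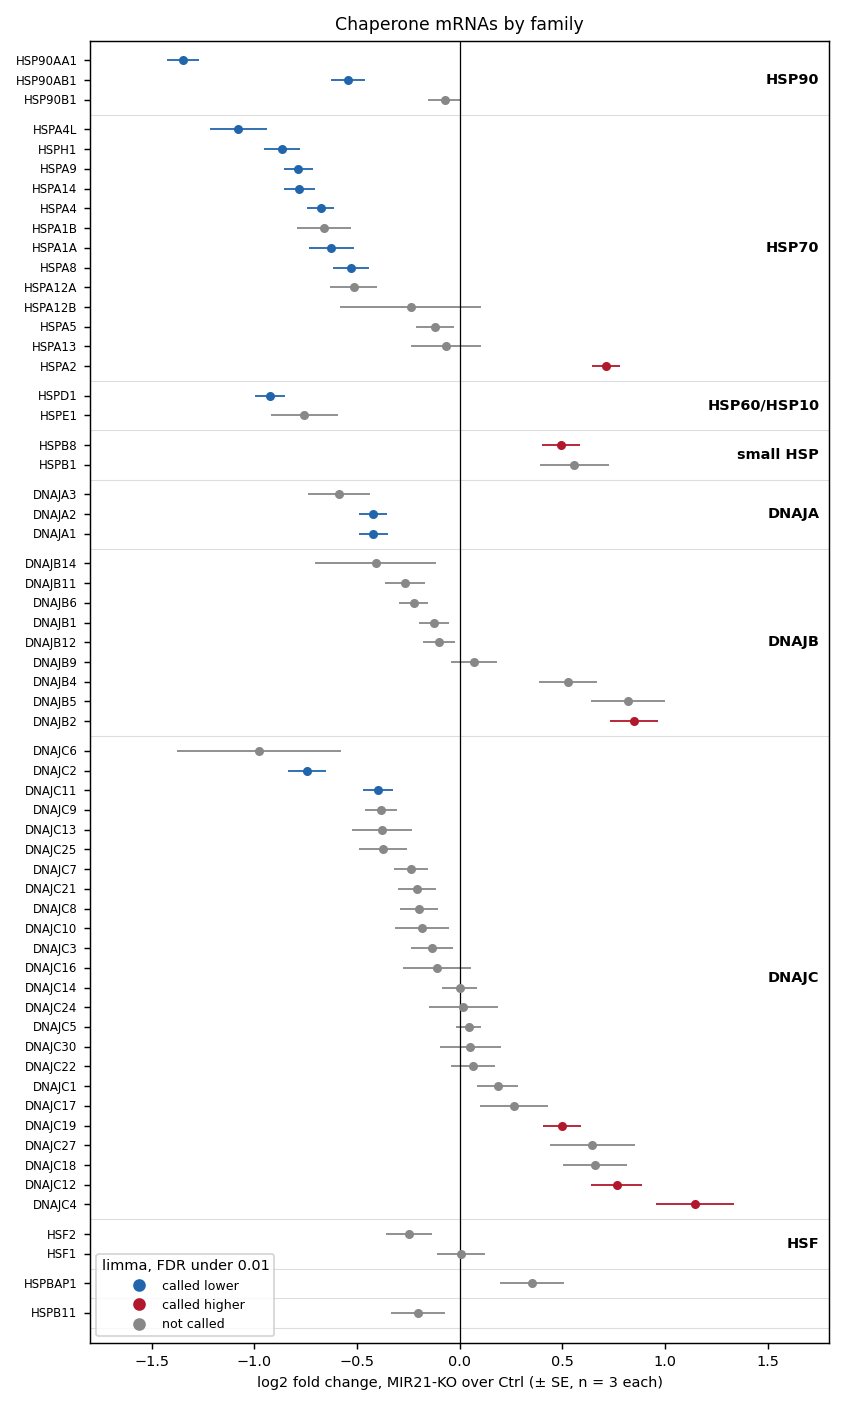
Log2 fold change of each of the 60 tested members, MIR21-KO over Ctrl, by family; points are limma estimates, bars are SE, n = 3 libraries per group, blue called lower and red called higher at an FDR under 0.01. HSP90, HSP70 and HSP60/HSP10 members lie mostly left of 0, with HSP90AA1 at -1.35, whereas DNAJC members spread to both sides, up to 1.15 for DNAJC4.

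The 2 cytosolic HSP90 mRNAs, the most abundant members, fell by different amounts. HSP90AA1, the stress-inducible HSP90 alpha (chromosome 14, 102080738 to 102139699), had 542, 537 and 523 FPKM in Ctrl replicates 1 to 3 and 202, 212 and 215 FPKM in MIR21-KO. Levels in MIR21-KO were thus 2.54-fold lower, with a log2 fold change of -1.35 ± 0.0795 (SE, FDR = 0.000122). HSP90AB1, the constitutive HSP90 beta (chromosome 6, 44246166 to 44253888), had 726, 703 and 706 FPKM in Ctrl and 494, 482 and 488 FPKM in MIR21-KO, a 1.46-fold lower level (FDR = 0.00369). Every MIR21-KO library lay below every Ctrl library for both genes. The third HSP90, HSP90B1 of the endoplasmic reticulum (GRP94), had 227, 238 and 231 FPKM in Ctrl and 230, 222 and 210 FPKM in MIR21-KO, so its groups overlapped, and it was not called (log2 fold change -0.07, FDR = 0.515). HSP90B1 and the other uncalled members named to complete a pair or a compartment were picked after their values were seen.

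Ratios within each library show how unequal these changes were. The ratio of HSP90AA1 to HSP90AB1 FPKM was 0.751 ± 0.0122 (SD, n = 3) in Ctrl and 0.430 ± 0.0177 in MIR21-KO, and that of HSP90B1 to HSP90AB1 was 0.327 ± 0.0129 and 0.452 ± 0.0189. Neither ratio overlapped between groups, but 3 libraries against 3 cannot give an exact two-sided permutation p below 0.1, which both had (adjusted p = 0.15 over the 6 ratios examined, all chosen after the values were seen).

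HSP70 was the family with the most called members, 7 lower (53.8%, background 8.38%) and 1 higher (7.69%, background 7.66%) of 13 tested, with a median log2 fold change of -0.62. Lower HSP70 members numbered 4 without any single Ctrl library or without MIR21-KO replicate 2. HSPA8, the constitutive HSC70 (chromosome 11, 123057489 to 123063230), was the most abundant at 357, 373 and 355 FPKM in Ctrl and was 1.44-fold lower in MIR21-KO at 266, 253 and 234 FPKM (FDR = 0.00508). The stress-inducible pair HSPA1A and HSPA1B lies side by side on chromosome 6. HSPA1A had 25.0, 26.6 and 23.6 FPKM in Ctrl and 18.2, 16.6 and 14.0 FPKM in MIR21-KO, a 1.54-fold lower level (FDR = 0.00665). HSPA1B had 9.69, 9.48 and 9.43 FPKM in Ctrl and 6.46, 6.80 and 4.89 FPKM in MIR21-KO and missed the threshold (FDR = 0.0106, or 0.00312 without MIR21-KO replicate 3). The coding sequences of these genes are nearly identical, so the split of reads between them is uncertain; their ratio was 2.63 ± 0.157 in Ctrl and 2.71 ± 0.235 in MIR21-KO (exact permutation p = 0.8).

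HSP110-type proteins are relatives of HSP70 that exchange its nucleotide, and the 3 of them among the members were lower, whereas HYOU1 of the endoplasmic reticulum, no member by its name, was not called (FDR = 0.642). HSPH1 had 30.1, 30.6 and 28.2 FPKM in Ctrl and 15.1, 15.8 and 18.0 FPKM in MIR21-KO (1.82-fold lower, FDR = 0.000861). HSPA4 had 70.4, 74.6 and 69.2 FPKM in Ctrl and 44.2, 44.7 and 44.8 FPKM in MIR21-KO (1.60-fold lower, FDR = 0.000758). HSPA4L, the least abundant, had 4.31, 3.99 and 3.63 FPKM in Ctrl and 1.67, 1.71 and 2.12 FPKM in MIR21-KO (2.17-fold lower, FDR = 0.00202). Thus the HSPA4L change was the largest fold among the tested HSP70 relatives, at a level below 5 FPKM, and an annotated gene on the same strand, AC093591.3, overlaps it (0.992 FPKM in Ctrl, 0.172 FPKM in MIR21-KO).

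The ribosome-associated complex, in which HSPA14 and the J protein DNAJC2 receive nascent chains, was lower in both its parts. HSPA14 had 10.2, 10.2 and 10.3 FPKM in Ctrl and 5.92, 6.12 and 5.63 FPKM in MIR21-KO (1.73-fold lower, FDR = 0.000657). A further annotated gene of the same name overlaps it on the same strand (1.16 FPKM in Ctrl, 1.08 FPKM in MIR21-KO). DNAJC2 had 9.83, 11.0 and 11.1 FPKM in Ctrl and 6.78, 6.23 and 5.95 FPKM in MIR21-KO (1.69-fold lower, FDR = 0.00171). DNAJC2 was no longer called once each library's trends with GC content and gene length were removed (log2 fold change -0.58), and it overlaps PMPCB and PSMC2 on the opposite strand.

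HSPA2 was the HSP70 gene called higher. This member, best known for its role in male germ cells (chromosome 14, 64535905 to 64546173), had 18.2, 18.0 and 17.3 FPKM in Ctrl and 30.2, 30.0 and 27.7 FPKM in MIR21-KO. It was 1.64-fold higher (log2 fold change 0.71 ± 0.0695, FDR = 0.000696), with no overlap between groups. The ratio of HSPA2 to HSPA8 FPKM was 0.0494 ± 0.00137 in Ctrl and 0.117 ± 0.00277 in MIR21-KO (exact permutation p = 0.1, the smallest possible).

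**Figure D2:**
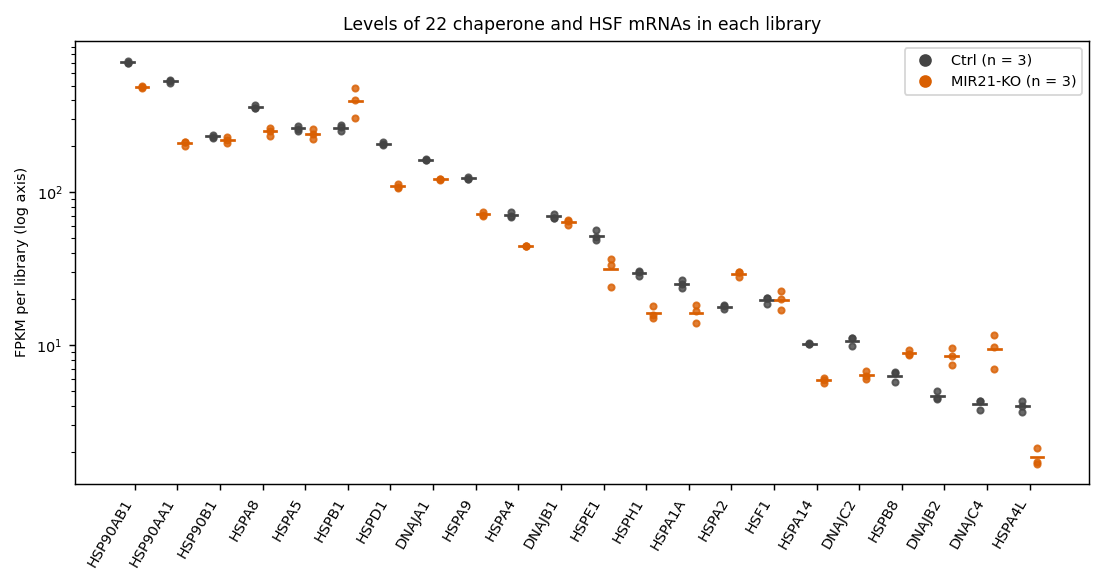
FPKM of 22 members in each library on a log axis, Ctrl in grey and MIR21-KO in orange, with a short line at the mean of 3 libraries. HSP90AA1 drops from 534 to 210 FPKM on average, HSPA2 lies higher in all 3 MIR21-KO libraries, and HSP90B1, HSPA5 and HSF1 overlap between the groups.

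Mitochondrial chaperones showed the lowest median of the compartments, -0.59 over 7 tested members, of which 3 were lower (42.9%, background 8.38%) and 1 higher (14.3%, background 7.66%). Without any single Ctrl library or without MIR21-KO replicate 2 there were 2 lower and 0 higher. Leaving out MIR21-KO replicate 1 gave 4 lower and 0 higher, and leaving out MIR21-KO replicate 3 gave 4 and 1. HSPD1, the mitochondrial HSP60 (chromosome 2, 197486581 to 197516737), had 208, 213 and 205 FPKM in Ctrl and 113, 107 and 109 FPKM in MIR21-KO (1.90-fold lower, log2 fold change -0.92 ± 0.0732, FDR = 0.000331). HSPE1, its HSP10 lid, had 48.6, 56.8 and 50.9 FPKM in Ctrl and 36.6, 33.2 and 23.9 FPKM in MIR21-KO, with no overlap but a wide spread in MIR21-KO and no call (FDR = 0.0142, or 0.00853 when the first MIR21-KO replicate was left out and 0.00467 when the third was). These genes point away from each other, with listed starts at 197500274 (HSPD1, minus strand) and 197500379 (HSPE1, plus strand), 105 bases apart, a further HSPD1 start (the one of the window shown) lies at 197499840, and their annotated spans overlap on opposite strands. The ratio of HSPD1 to HSPE1 FPKM was 4.01 ± 0.265 in Ctrl and 3.62 ± 0.810 in MIR21-KO (exact permutation p = 0.4).

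HSPA9 (mortalin), the mitochondrial HSP70 that pulls proteins through the inner membrane and folds them in the matrix, had 125, 123 and 123 FPKM in Ctrl and 70.7, 69.6 and 74.6 FPKM in MIR21-KO (1.73-fold lower, FDR = 0.00051). DNAJC11, an outer membrane J protein tied to cristae organization, had 17.5, 19.1 and 17.7 FPKM in Ctrl and 14.3, 13.7 and 13.2 FPKM in MIR21-KO (1.32-fold lower, FDR = 0.0075). DNAJC19, the J protein of the import motor in which HSPA9 works, went the other way, from 4.16, 4.43 and 4.81 FPKM in Ctrl to 6.41, 6.49 and 6.13 FPKM in MIR21-KO (1.42-fold higher, FDR = 0.00784). Summed over all mitochondrial members, levels were 422 ± 8.34 FPKM (SD, n = 3) in Ctrl and 246 ± 9.56 FPKM in MIR21-KO, a ratio of 0.583. HSPD1 (mean 208 FPKM in Ctrl, 110 FPKM in MIR21-KO) and HSPA9 (124 and 71.6 FPKM) carried most of this drop. The means of DNAJC19 and DNAJC30 were higher in MIR21-KO, so the ratio does not describe each member.

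None of the 14 members of the endoplasmic reticulum was called by limma, where 16.0% of all genes tested were called in either direction. At an FDR under 0.05 there were 2 (14.3%, background 32.0%). At an unadjusted p under 0.05 there were 3 (2 lower, 1 higher), and the share of all genes at that p was not counted. Voom on recovered reads called 1 higher (DNAJC18), where voom called 21.8% of all genes tested. A count of 0 among 14 members does not show that they were unchanged. Their median log2 fold change was -0.11, and the groups did not overlap for 3 of 14 (21.4%), which is below the background of 48.1%. HSPA5 (BiP), the HSP70 of this compartment, had 253, 272 and 262 FPKM in Ctrl and 259, 242 and 223 FPKM in MIR21-KO (FDR = 0.352). The J proteins DNAJB9, DNAJB11, DNAJC3 and DNAJC10, which partner HSPA5, had log2 fold changes of 0.07, -0.27, -0.14 and -0.18. Summed over the compartment, levels were 585 ± 14.3 FPKM in Ctrl and 551 ± 26.0 FPKM in MIR21-KO. The ratio of HSPA5 to HSPA8 FPKM was 0.725 ± 0.0143 in Ctrl and 0.962 ± 0.0131 in MIR21-KO, without overlap (exact permutation p = 0.1, adjusted 0.15). A test of the difference between compartments was not made.

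In the cytosol and nucleus, 11 of 30 tested members were lower (36.7%, background 8.38%) and 4 higher (13.3%, background 7.66%). The lower count was 5 without Ctrl replicate 1 and 4 without Ctrl replicate 2, Ctrl replicate 3 or MIR21-KO replicate 2, with 1 higher each time. Leaving out MIR21-KO replicate 1 gave 12 lower and 3 higher, and leaving out MIR21-KO replicate 3 gave 13 and 6. The summed level was 2463 ± 22.7 FPKM in Ctrl and 1836 ± 115 FPKM in MIR21-KO. Without HSP90AA1 and HSP90AB1 it was 1218 ± 28.2 FPKM in Ctrl and 1138 ± 118 FPKM in MIR21-KO, with libraries of both groups overlapping. These 2 genes thus carried most of the net drop, but the remainder sets falls against rises. In it, HSPA8 averaged 362 FPKM in Ctrl and 251 FPKM in MIR21-KO and DNAJA1 163 and 122 FPKM, whereas HSPB1 averaged 264 and 396 FPKM. Its small net change therefore does not mean that the other members were unchanged. Over all 78 members the sum was 3534 ± 42.3 FPKM in Ctrl and 2696 ± 152 FPKM in MIR21-KO.

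**Figure D3:**
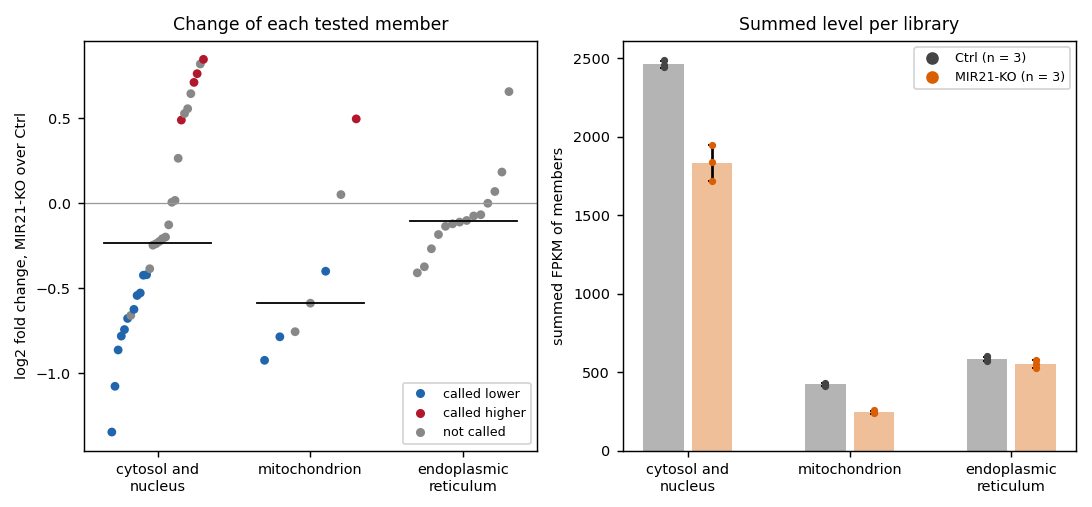
Left, log2 fold change of each tested member in 3 compartments, coloured by call, with a line at the median; right, summed FPKM per library (points), group mean (bars) and SD (error bars), n = 3. Medians are -0.23 for the cytosol and nucleus, -0.59 for mitochondria and -0.11 for the endoplasmic reticulum, where no member is called.

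The 2 small HSPs tested gave positive values. HSPB11, which has an HSPB name but was counted apart from them, had a log2 fold change of -0.20 and was not called (FDR = 0.279, limma). HSPB1 (HSP27), the most abundant of them, had 250, 274 and 269 FPKM in Ctrl and 481, 400 and 306 FPKM in MIR21-KO. The groups did not overlap, but the MIR21-KO libraries were far apart and the gene was not called (log2 fold change 0.56, FDR = 0.0439). Without MIR21-KO replicate 3 the FDR was 0.00291, and with trends in GC content and length removed it was 0.00127 at a log2 fold change of 0.38. HSPB8, which works with BAG3 in clearing misfolded proteins by autophagy, had 6.51, 6.66 and 5.70 FPKM in Ctrl and 9.32, 8.71 and 8.57 FPKM in MIR21-KO and was 1.41-fold higher (FDR = 0.00838). The other 5 small HSPs were under the level tested.

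Of 36 tested J-domain proteins 4 were lower and 4 higher, 11.1% in each direction, which is near the background of 8.38% lower and 7.66% higher. At most 1 was called without any single Ctrl library or without MIR21-KO replicate 2. Leaving out MIR21-KO replicate 1 gave 5 lower and 3 higher, and leaving out MIR21-KO replicate 3 gave 5 of each. Both called DNAJA members, the general partners of HSC70 in the cytosol, were lower. DNAJA1 had 162, 163 and 165 FPKM in Ctrl and 123, 122 and 121 FPKM in MIR21-KO (1.34-fold lower, FDR = 0.00505), and DNAJA2 had 22.3, 23.7 and 23.6 FPKM in Ctrl and 17.2, 17.9 and 16.7 FPKM in MIR21-KO (1.34-fold lower, FDR = 0.00476). DNAJA2 lost its call with trends in GC content and length removed (log2 fold change -0.29). DNAJB1, the main stress-inducible J protein and the most abundant DNAJB, had 68.2, 72.5 and 68.0 FPKM in Ctrl and 64.5, 65.7 and 60.8 FPKM in MIR21-KO (FDR = 0.224).

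The higher J proteins were of low to middle abundance. DNAJB2, a J protein with ubiquitin-binding motifs that hands clients to the proteasome, had 4.40, 5.02 and 4.52 FPKM in Ctrl and 9.60, 8.45 and 7.40 FPKM in MIR21-KO (1.82-fold higher, FDR = 0.00289). DNAJC12, a co-chaperone of aromatic amino acid hydroxylases, had 7.56, 7.72 and 8.55 FPKM in Ctrl and 15.7, 13.5 and 11.7 FPKM in MIR21-KO (1.72-fold higher, FDR = 0.00472). DNAJC4 had 4.31, 3.78 and 4.32 FPKM in Ctrl and 11.7, 9.72 and 6.98 FPKM in MIR21-KO (2.29-fold higher, log2 fold change 1.15 ± 0.188, FDR = 0.00513). DNAJC4 had the largest rise of the 60 tested members and overlaps NUDT22 on the same strand (6.86 FPKM in Ctrl, 8.55 FPKM in MIR21-KO), so reads of these genes may not be fully separated. DNAJC8, a splicing-associated protein and the most abundant DNAJC, had 34.7, 35.6 and 36.6 FPKM in Ctrl and 34.8, 30.5 and 28.1 FPKM in MIR21-KO (FDR = 0.15).

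Neither heat shock factor was called by limma or voom, and neither had an unadjusted p under 0.05. HSF1, the main activator of the heat shock response, had 18.5, 20.2 and 20.2 FPKM in Ctrl and 22.6, 20.0 and 16.9 FPKM in MIR21-KO, around the same mean (19.6 and 19.9 FPKM, FDR = 0.974). HSF2 had 4.54, 3.78 and 4.63 FPKM in Ctrl and 3.59, 3.48 and 3.77 FPKM in MIR21-KO (FDR = 0.144, log2 fold change -0.25). HSF1 is controlled mostly at the protein level, which mRNA does not show. Of 19 tested genes from a textbook list of HSF1 targets, 11 were lower (57.9%, background 8.38%) and 0 higher by limma at an FDR under 0.01. The lower count was 6 without Ctrl replicate 1 or 2 and 5 when either Ctrl replicate 3 or the second MIR21-KO replicate was left out. By voom 13 were lower and 0 higher, where voom called 21.8% of all genes tested in either direction. At an unadjusted p under 0.05, 14 had lower and 2 had higher values (HSPB1 and SERPINH1 the higher), and the share of all genes was not counted. As 11 of the 20 listed genes are members, the 8 tested genes that are not were counted apart, and 4 of these were lower. That count was 2 when either Ctrl replicate 3 or the second MIR21-KO replicate was left out, and 3 without Ctrl replicate 1 or 2. It was 4 without MIR21-KO replicate 1 or 3, with 1 called higher without replicate 3. CHORDC1, AHSA1, STIP1 and FKBP4 are counted again among the lower co-chaperones and partner genes below, so those counts are not separate from this one.

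The heat shock element shown above was found in windows of 6 of the 53 tested members with a listed start (11.3%), against 45 of 9355 tested genes (0.481%) and 166 of 27305 RefSeq genes (0.608%). The 6 were HSP90AA1, HSP90AB1, HSPA8, HSPD1, DNAJA1 and DNAJB6. Of the 13 lower members with a window 5 held it, of the 6 higher members 0, and of the 34 uncalled ones 1 (DNAJB6, FDR = 0.0482). The ER stress element was found in HSPA5 and HSP90B1, 2 of the 13 members of the endoplasmic reticulum with a window, against 16 of 9355 tested genes (0.171%). A match describes these letters and not a bound site, and the strict motif leaves out many known elements, HSPA1A among the genes without a match.

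Matches to the miR-21-5p seed were searched in the longest annotated 3′-UTR of each gene. The 7-base match ATAAGCT occurred in 10 of the 60 tested members (16.7%) and in 1151 of 11644 tested protein-coding genes (9.88%). The 8-base match with a following A occurred in 3 members (5%), HSPA4L, DNAJB9 and DNAJB12, and in 334 of the protein-coding genes (2.87%). The 3′-UTRs of members with a match had 1497 to 17332 bases. A longer 3′-UTR has more room for a match, and these shares were not adjusted for length. Sites of the 4 members below are printed because they are the ones among the 10 with an FDR under 0.05, with the match in capitals, in GRCh38 coordinates.
HSPA4L, chr4:127838924-127838945, plus strand: cgtacttgATAAGCTAtgttat
DNAJB5, chr9:34998532-34998553, plus strand: ccctcagtATAAGCTgaagctg
DNAJC18, chr5:139411502-139411523, minus strand: gtggtaaaATAAGCTttttcct
DNAJC18, chr5:139410513-139410534, minus strand: tttaaggtATAAGCTtagtgtc
DNAJA2, chr16:46956618-46956639, minus strand: gcacctgcATAAGCTgctacaa
Of these, HSPA4L and DNAJA2 were lower in MIR21-KO cells, as given above. DNAJB5 had 1.39, 1.23 and 1.70 FPKM in Ctrl and 2.95, 2.73 and 2.17 FPKM in MIR21-KO (FDR = 0.015, log2 fold change 0.82), and DNAJC18, with 2 matches, had 1.74, 1.89 and 1.47 FPKM in Ctrl and 2.89, 2.35 and 2.99 FPKM in MIR21-KO (FDR = 0.0196, log2 fold change 0.66). Neither was called by limma. Of the 10 members with a match, 0 were called higher (background 7.66%) and 2 lower (background 8.38%), too few genes to tell these counts from the background. At an unadjusted p under 0.05, 2 had higher and 2 had lower values, and the share of all genes at that p was not counted. Voom on recovered reads called both DNAJB5 and DNAJC18.

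Partner genes outside the name rule were counted from 3 lists covering the same folding pathway, and 16 of 40 were lower (40.0%, background 8.38%, or 13.2% among genes of at least 5 FPKM) and 0 higher (limma, FDR under 0.01). By voom 18 were lower and 0 higher, where voom called 21.8% of all genes tested in either direction. At an unadjusted p under 0.05 there were 23 with lower and 2 with higher values, and the share of all genes at that p was not counted. The count of 16 was 8 without any single Ctrl library and 5 without MIR21-KO replicate 2. Among 17 co-chaperones and exchange factors of HSP70 and HSP90, 7 were lower (41.2%), namely STIP1, PTGES3, AHSA1, FKBP4, PPID, CHORDC1 and BAG4. Leaving out a Ctrl library or MIR21-KO replicate 2 gave 2 or 3, leaving out MIR21-KO replicate 1 gave 6, and leaving out MIR21-KO replicate 3 gave 9. CHORDC1, an HSP90 co-chaperone, fell from 10.1 ± 0.0394 (SD, n = 3) to 4.53 ± 0.768 FPKM (2.24-fold, FDR = 0.00116), and FKBP4, an immunophilin of steroid receptor complexes, from 64.9 ± 1.33 to 34.6 ± 4.33 FPKM (1.88-fold, FDR = 0.00128). Genes that link HSP70 to HSP90 (STIP1), close the HSP90 clamp (PTGES3) or speed its ATPase (AHSA1) were thus lower together with HSP90AA1 and HSP90AB1, whereas CDC37, which brings kinases to HSP90, was not called (log2 fold change -0.31, FDR = 0.165).

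Among 9 organelle chaperones, both called genes (22.2%, background 8.38% lower) were mitochondrial. The lower count was 1 without Ctrl replicate 1, Ctrl replicate 2 or MIR21-KO replicate 2. It was 2 without each other library, with 1 called higher without MIR21-KO replicate 3. TRAP1, the mitochondrial HSP90, fell from 46.2 ± 1.55 to 23.0 ± 2.33 FPKM (2.01-fold, FDR = 0.000544), and GRPEL1, the nucleotide exchange factor of HSPA9, from 14.0 ± 0.395 to 8.11 ± 0.771 FPKM (1.73-fold, FDR = 0.00134). HYOU1, an HSP110-type protein of the endoplasmic reticulum, had 17.8 ± 0.686 and 17.2 ± 0.985 FPKM (FDR = 0.642). In the CCT chaperonin, the cytosolic chamber that folds actin and tubulin, 7 of 8 subunits were lower (87.5%; 4 without any single Ctrl library, 2 without MIR21-KO replicate 2), led by TCP1, from 67.4 ± 1.88 to 38.4 ± 0.446 FPKM (1.76-fold, FDR = 0.000339), and CCT5, from 96.4 ± 2.30 to 58.0 ± 3.81 FPKM (1.66-fold, FDR = 0.000987). The eighth, CCT3, had a log2 fold change of -0.38 (FDR = 0.0305). None of the 6 prefoldin subunits, which deliver clients to CCT, was called by limma, with 2 lower and 1 higher at an unadjusted p under 0.05 and 1 called lower by voom.

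**Figure D4:**
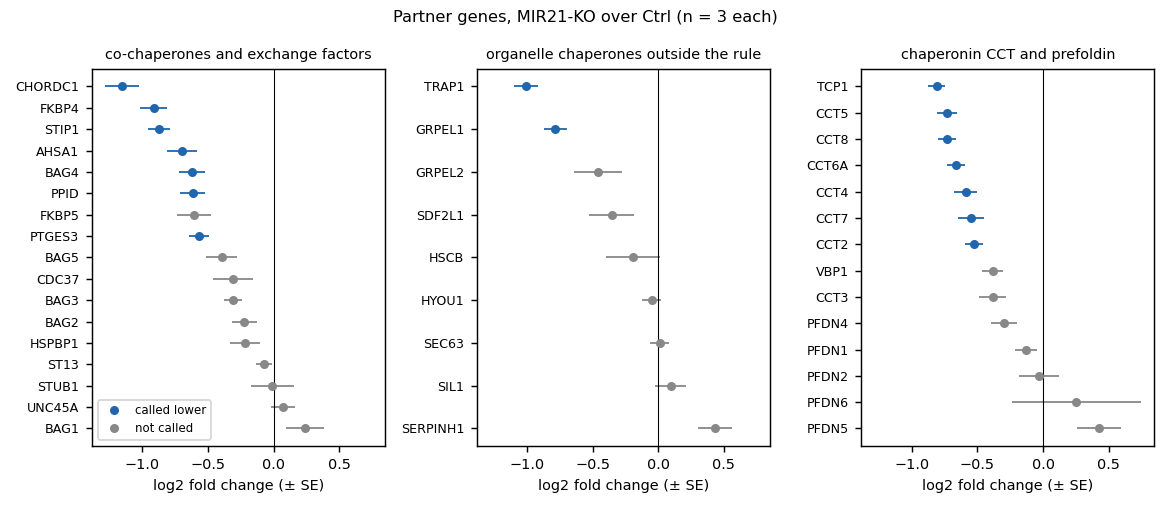
Log2 fold change (points) with SE (bars) of 40 partner genes in 3 lists, MIR21-KO over Ctrl, n = 3 libraries per group; blue marks genes called lower at an FDR under 0.01 and no gene is called higher. CHORDC1 at -1.16, TRAP1 at -1.01 and TCP1 at -0.81 have the lowest values of their lists.

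The 18 members that were not tested had means of at most 0.273 FPKM and no more than 12 reads in any library, and 5 of them had no read. They included HSPA6, the strictly stress-induced HSP70, with 2 to 6 reads per library. For a gene of 1 kb, 0 reads still allow a level of 0.219 to 0.279 FPKM (3 reads, counting error only), so these members were not detectable as different at this depth.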

How the data were processed

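PolyA RNA was sequenced as strand-specific Illumina libraries. The authors deposited 1 table of 58174 genes that holds gene lengths, FPKM per library and columns of the authors' fold changes, p-values and FDRs, which were not used. The submitters' processing notes name hg38, cutadapt 1.14, HISAT2 2.1.0, SAMtools 1.5, featureCounts 1.5.3 and edgeR 3.18.1 without roles; strand use and the treatment of shared reads in counting are not given in the sources used here. FPKM times gene length gave whole reads, within 0.01 of a read, for 100% of values above 0, at library sizes 0.95 to 1.03 times the read totals, so the authors had applied a scaling. For a gene of 1 kb, 1 read stood for 0.0731 to 0.093 FPKM.

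The 16006 genes averaging 0.5 FPKM or more were compared by limma 3.58.1 on log2(FPKM + 0.1) (R 4.3.3, trend and robust eBayes, two-sided, no covariate) over all 6 libraries, and p-values were adjusted by Benjamini-Hochberg over 16006 genes. Calls were made at an FDR under 0.01, following the study's threshold. Fold changes between groups are ratios of mean FPKM; log2 fold changes include the pseudocount and understate changes of low genes. Negative binomial models were not used on FPKM, and voom on the recovered reads was an alternative. On simulated data of 3 against 3 libraries with 200 of 16006 genes changed 2-fold, limma recovered 146 with 5 false calls, and voom 196 with 2. The simulation gave every gene the same dispersion, changed only genes with many reads and held no library trends or clone differences. Its rates therefore do not carry over to the real libraries. Ratios were compared by exact permutation on the log2 scale. GENCODE 29 (GRCh38) matched 57836 of 58174 genes and all 78 members; start-site windows and the microRNA came from RefSeq (GRCh38.p14).

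Named were every called member, the most abundant member of each family, HSF1, HSF2, HSPA1A, HSPA1B, members with a log2 fold change of at least 1 in size and the 2 largest called changes per partner list. The members, compartments and lists were chosen with earlier results of these data known, so no count over a list is independent evidence. Alternatives covered pseudocount, filter, scaling, moderation, FDR threshold, protein-coding genes only, trends with GC content and length (lowess, span 0.3), a replicate block and leaving out each library. Figures were drawn with matplotlib 3.10.9.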

Additional observations from a re-analysis of the deposited data

How the results depend on the processing

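All 20 called members kept their direction under the 19 alternatives wherever they were tested, and HSP90AA1 and HSPD1 kept their calls under all 19. With 2568 genes, 20 members (14 lower, 6 higher) and 16 partner genes called as reported, an FDR under 0.05 gave 5114 genes and 31 members, 10 of them higher. Without a filter on low values 13 members were called (2 higher), and without trend and robust fitting 12 (2 higher). With trends in GC content and length removed there were 3941 genes and 24 members, 18 of them among the 20. Leaving out each library gave 768 to 3400 genes, 7 to 26 members, 6 to 18 lower and 1 to 8 higher members, and 5 to 20 partner genes. At least 1 alternative called 11 further members. Replicate numbers did not pair the libraries, since same-numbered deviations correlated at -0.171, -0.0177 and -0.0174. A replicate block gave 651 genes, 2 members (2 lower, 0 higher) and 4 partner genes, and the block together with removed GC and length trends gave 13 members, 9 of them lower. Only uncalled genes changed sign. HSF1 was at -0.000168 with median-ratio scaling, -0.0301 with scaling by total reads, -0.134 with trends removed (with and without the block), and between -0.0937 and 0.117 when single libraries were left out (-0.036 without Ctrl replicate 1 and -0.00506 without MIR21-KO replicate 2), and HSP90B1 at 0.0539 with trends removed (with and without the block). Causes were not tested. Under the 2 other scalings the median over all genes shifted by -0.00636 and -0.0357. Depth limited the 18 members under the level tested.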

Other observations

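Pseudogenes named after the chaperones made up 94 listed genes, of which 61 had no read and 9 passed the minimum level, so most had little signal. HSP90AA2P had 9.23, 11.6 and 7.89 FPKM in Ctrl and 2.61, 3.65 and 3.76 FPKM in MIR21-KO (limma, FDR = 0.00208, log2 fold change -1.49). HSPD1P1 had 7.87, 10.5 and 9.36 FPKM in Ctrl and 5.61, 4.73 and 4.33 FPKM in MIR21-KO (FDR = 0.00456, log2 fold change -0.90). Both moved in the direction of HSP90AA1 and HSPD1, the genes they copy, and reads of a gene and its processed copy may not be fully separated. The part of such shared reads in either change was not tested.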
